A study of Mus musculus with 6 samples.

Results

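Collagen is built in the endoplasmic reticulum and hardened outside the cell, and a small set of enzymes does both chemical jobs. Collagen prolyl 4-hydroxylases, whose catalytic α subunits include those encoded by P4ha1 and P4ha2, hydroxylate prolines so that the triple helix stays folded at body temperature. Lysyl hydroxylases, encoded by Plod1, Plod2 and Plod3, hydroxylate lysines that later carry sugars or enter cross-links, and both kinds of hydroxylase need iron, 2-oxoglutarate and ascorbate. Lysyl oxidases, encoded by Lox and Loxl1 to Loxl4, are secreted copper enzymes that convert lysines and hydroxylysines to aldehydes, from which the covalent cross-links of collagen and elastin form. In skin these enzymes serve the collagen-rich dermis, while keratinocytes rest on a basement membrane whose collagens are hydroxylated as well.

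These 10 genes were chosen by name, with earlier results of these data known. A gene counted as measured when a probe set was paired with its symbol and no other. By this rule 9 of the 10 genes were measured, out of 10261 genes in all. Loxl2, which encodes an oxidase that acts on basement membrane collagen, was not analysed here, because its probe set is paired with 2 symbols, Gm21451 and Loxl2. The data were 6 Affymetrix MoGene-1_0-st arrays of total RNA from untreated mouse cells, with 3 arrays labelled keratinocytes and 3 labelled MEFs (mouse embryonic fibroblasts), numbered as biological replicates in each group. The keratinocytes came from newborn (P0) skin, with no strain or genotype given. The MEFs came from E13.5 embryos without head and inner organs, the protocol pools the embryos of a preparation, and their strain is C57BL/6J in the methods but DR-4 in the protocol with the samples. The groups were grown in different media, so culture, age and cell type cannot be told apart, and p-values measure the spread between these arrays.

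The values were deposited as log2 signals of 15648 probe sets, 1 value per probe set and array. On every probe set at least 2 of the 6 arrays had a log2 signal of 4 or more, so the table holds no probe set that was dim throughout. Of the 9 genes, 6 met this floor on the MEF-labelled arrays alone, and 3 (Lox, Loxl1 and Loxl3) met it only through the keratinocyte-labelled arrays. These 3 could be in the table only with the groups apart, so counts over the 9 genes are given as a description. A signal was called above background when it exceeded a level set on the same array by 10 probe sets for olfactory receptors (their 95th percentile), genes that neither cell type is known to use. That level lay between 5.49 and 5.92 on the keratinocyte-labelled arrays and between 6.05 and 6.58 on the MEF-labelled ones. It is a high and rough level, since these receptors also had to pass the floor. Every difference below is the log2 signal on the keratinocyte-labelled arrays minus that on the MEF-labelled arrays, tested with limma over the 11288 probe sets that have 1 symbol, with 0.05 as the threshold for the p adjusted after Benjamini and Hochberg.

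The cell type labels ran against their markers, so each direction below is that of the arrays as labelled. Cdh1, which encodes the epithelial adhesion protein E-cadherin, stood at log2 signals of 3.33, 2.16 and 3.26 on the keratinocyte-labelled arrays and of 8.62, 8.59 and 8.73 on the MEF-labelled ones. Vim, which encodes the mesenchymal filament protein vimentin, stood at 11.93, 11.97 and 12.03 on the keratinocyte-labelled arrays and at 3.81, 3.92 and 3.78 on the MEF-labelled ones. Of 7 keratinocyte markers, 7 were higher on the MEF-labelled arrays, against 41.7% of all genes called in that direction. The mean log2 signal over the list was 10.32 to 10.38 there and 2.91 to 3.16 on the others. Of 8 fibroblast markers, 8 were higher on the keratinocyte-labelled arrays, against 32.9% of all genes. Their list mean was 9.85 to 9.96 there against 2.92 to 3.06. Only the keratinocyte marker Itgb4 and the fibroblast markers Col1a1, Col1a2 and Col3a1 met the floor on the arrays where they were low. Cdh1, Vim and the other markers of these lists met it only through the arrays where they were high, so the floor favoured their separation. Markers of other cell types moved as well. Of 5 listed muscle markers 3 were measured, without Myod1 and Myog, and these 3 were higher on the keratinocyte-labelled arrays. Of 5 listed cartilage markers 4 were measured, and 3 were higher there. Over all genes, 32.9% were called in that direction. The list means were 8.16 to 8.34 against 4.18 to 4.73 for muscle and 5.89 to 6.11 against 4.47 to 4.66 for cartilage. Of the cartilage markers, Acan and Comp were above background on no array, and Sox9 was higher on the MEF-labelled ones. The muscle marker Des was above background on 1 array. Des and Myh11 of the muscle list, and Acan and Comp, met the floor only through the keratinocyte-labelled arrays, which favoured their direction. The macrophage and endothelial lists of 4 genes had 1 measured member each, which says little of such cells. The macrophage marker Cd68 (4.39 to 5.00 against 8.43 to 8.68) was higher on the MEF-labelled arrays. So was the endothelial marker Kdr (3.31 to 3.62 against 4.80 to 5.06, under background on all 6 arrays), which met the floor only through the MEF-labelled arrays. The osteoblast and melanocyte lists had no measured member. The part of such cells in the values below was not tested, and in bulk RNA fewer cells of a type and less RNA per cell cannot be told apart.

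All 9 measured enzymes were higher on the keratinocyte-labelled arrays, the arrays with high Vim and low Cdh1. Over all 10261 genes, 32.9% were called higher there, and 14.1% were called and differed by at least 1 on the log2 scale, as the 9 enzymes did. For each of the 6 enzymes that met the floor on the MEF-labelled arrays alone, the 3 arrays of a group lay apart from the 3 of the other (p = 0.1 by a two-sided exact permutation test, as low as 3 arrays against 3 can give). Such separation with the keratinocyte-labelled arrays higher was found for 35.0% of all genes. The groups of Lox, Loxl1 and Loxl3 did not overlap either, which the floor favoured. The median difference of the 9 enzymes was 2.68, against -0.12 over all genes. On the MEF-labelled arrays 5 of the 9 enzymes (Lox, Loxl1, Loxl3, Loxl4 and P4ha1) were above background on no array. This number depends on the level, and became 8 with the maximum of the olfactory receptors and 3 with their median.

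**Figure D1:**
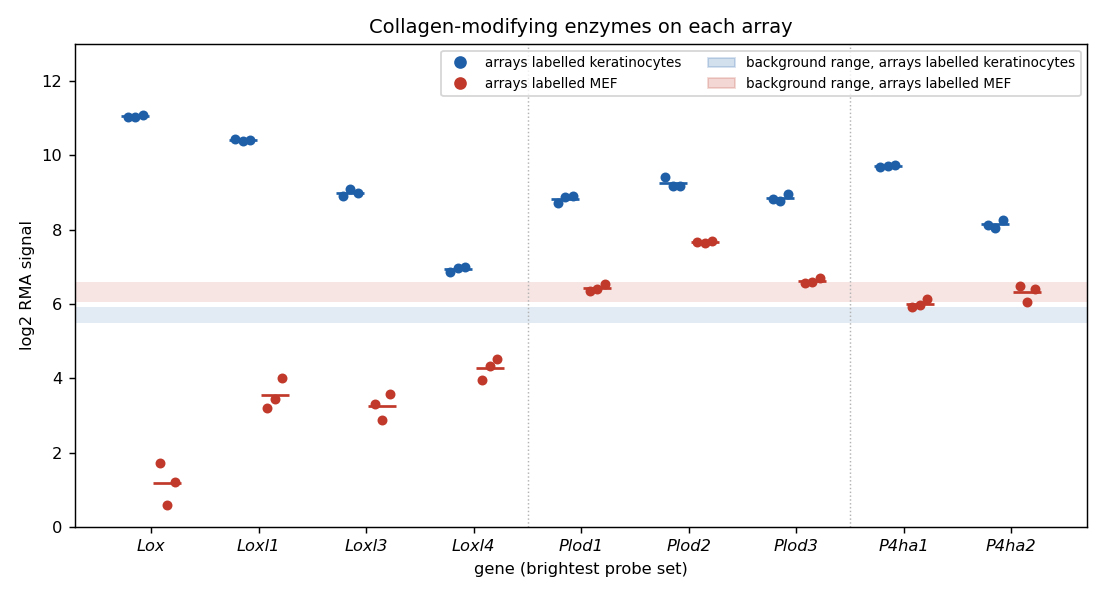
Log2 RMA signal (vertical axis) of the 9 measured enzymes on each of the keratinocyte-labelled (blue) and MEF-labelled (red) arrays, 3 of each kind, with lines for group means and bands for the lowest to highest background level (olfactory receptors) in each group. All blue points lie above both bands, and the red points of the lysyl oxidases lie below them while those of the lysyl hydroxylases lie in or above the red band.

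Of the lysyl oxidases, Lox (probe set 10458894), the founding member and the main cross-linking oxidase of fibrillar collagen, had log2 signals of 11.04, 11.03 and 11.09 on the keratinocyte-labelled arrays. On the MEF-labelled arrays it had 1.71, 0.59 and 1.21, far under background on each of them. The measured difference was 9.88 (95% CI 9.32 to 10.44, adjusted p = 9.18e-09), which ranked 1 of 10261 genes. Since Lox met the floor only through the keratinocyte-labelled arrays, this p and this rank are given as a description. Because the low group was not above background, the fold is a lower bound, at least 25.4-fold, taken from the mean of the bright group over the mean background level of the dim group.

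Loxl1 (probe set 10594066), whose product is needed to renew elastic fibres, stood at 10.44, 10.38 and 10.42 on the keratinocyte-labelled arrays. On the MEF-labelled arrays it stood at 3.20, 3.44 and 4.01. The fold was at least 16.3, and the measured difference was 6.86 (95% CI 6.43 to 7.29, adjusted p = 1.46e-08). Loxl3 (probe set 10539263), an oxidase with scavenger receptor domains that is required for palate and muscle development, had signals of 8.89, 9.09 and 8.99 against 3.32, 2.88 and 3.58. The fold was at least 6.09 (difference 5.74, 95% CI 5.35 to 6.12, adjusted p = 2.17e-08). Loxl1 and Loxl3 also met the floor only through the keratinocyte-labelled arrays, so their p-values are a description as well. For both genes the bright group was tight, with an SD of 0.03 and 0.10, while the dim group scattered more, with 0.41 and 0.35.

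Loxl4, another oxidase with scavenger receptor domains, was read by 2 probe sets. The brighter (10467768) had signals of 6.86, 6.98 and 7.00 on the keratinocyte-labelled arrays, above background on all 3, and of 3.95, 4.32 and 4.53 on the MEF-labelled ones. Its difference was 2.68 (95% CI 2.34 to 3.02, adjusted p = 8.01e-07), and the fold was at least 1.47. The dimmer (10467766) had 4.59, 5.10 and 5.51 against 2.71, 3.03 and 2.61 and exceeded background on 1 of the 6 arrays, so no fold is given. Its difference was 2.28 (95% CI 1.77 to 2.79, adjusted p = 2.89e-05). Since the dimmer probe set met the floor only through the keratinocyte-labelled arrays, which favoured its direction, this p is a description. It adds no support to the brighter probe set.

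**Figure D2:**
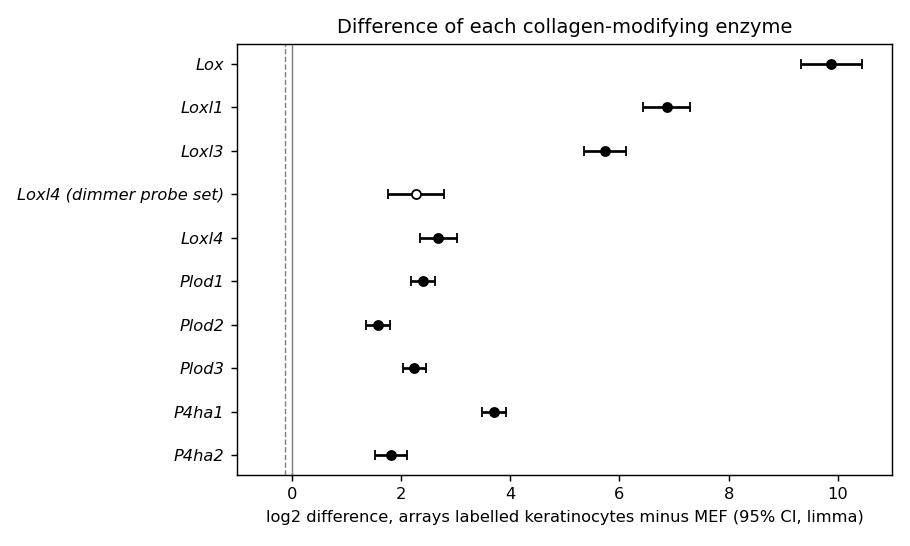
Log2 difference of each enzyme, keratinocyte-labelled minus MEF-labelled arrays (horizontal axis), with 95% confidence intervals from limma over 3 arrays per group. The open point is the dimmer Loxl4 probe set and the dashed line the median of all genes (-0.12), and the differences run from 1.58 for Plod2 to 9.88 for Lox with no interval reaching 0.

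The lysyl hydroxylases had differences between 1.58 and 2.40, and their MEF-labelled signals lay nearer to background or above it. Plod1 (probe set 10518408), which hydroxylates lysines of the collagen helix, stood at 8.71, 8.89 and 8.90 on the keratinocyte-labelled arrays and at 6.36, 6.41 and 6.53 on the MEF-labelled ones, of which 1 was above background. It was 5.28-fold higher on the keratinocyte-labelled arrays, a difference of 2.40 (95% CI 2.18 to 2.62, adjusted p = 1.27e-07). Plod3 (probe set 10526520), whose product also transfers sugars to hydroxylysine, stood at 8.82, 8.78 and 8.95 against 6.56, 6.58 and 6.69. It was above background on all 6 arrays, but only just so on MEF-labelled replicates 1 and 3. It was 4.73-fold higher, a difference of 2.24 (95% CI 2.03 to 2.45, adjusted p = 1.37e-07), so that the intervals of Plod1 and Plod3 overlapped.

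Plod2 (probe set 10587829), which hydroxylates the telopeptide lysines that lead to stable pyridinoline cross-links, had the smallest difference of the 9 enzymes. It stood at 9.41, 9.18 and 9.18 on the keratinocyte-labelled arrays and at 7.66, 7.65 and 7.71 on the MEF-labelled ones, above background throughout. This was a 3.00-fold difference (1.58 on the log2 scale, 95% CI 1.36 to 1.81, adjusted p = 1.62e-06). On the MEF-labelled arrays its 3 signals lay close together, with an SD of 0.03.

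Both α subunits of prolyl 4-hydroxylase among the 9 enzymes were higher on the keratinocyte-labelled arrays. P4ha1 (probe set 10363350), the principal isoform of most cells, stood at 9.69, 9.71 and 9.74 on the keratinocyte-labelled arrays and at 5.91, 5.97 and 6.13 on the MEF-labelled ones, none of which was above background. The fold was at least 10.0 with a measured difference of 3.71 (95% CI 3.49 to 3.92, adjusted p = 1.01e-08). P4ha2 (probe set 10376074), the isoform prominent in cartilage and bone, stood at 8.11, 8.05 and 8.25 against 6.49, 6.06 and 6.42, with 1 of the latter 3 above background. The measured difference was 1.82 (95% CI 1.52 to 2.12, adjusted p = 4.11e-06), or 3.53-fold between signals of which the lower lay about at background. Its interval lay below that of P4ha1, but with P4ha1 under background this does not rank their folds.

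P4ha1, P4ha2, Plod2 and Lox are known targets of the hypoxia-inducible factors, which bind the letters ACGTG or GCGTG. Promoter windows of 300 bases (mostly upstream of the annotated gene start) of 5 enzymes were read from RefSeq sequences of GRCm38.p6: Loxl4, Plod1, Plod3, P4ha1 and P4ha2. Windows of Lox, Plod2, Loxl1, Loxl2 and Loxl3 are not reported here. Those of P4ha1, P4ha2 and Plod3, the last with 4 matches as P4ha2 had, are printed 5′ to 3′ on the strand of the gene, with each match in capitals. CACGT and CACGC are the same letters on the other strand.
P4ha1, chr10:59323046-59323345, plus strand: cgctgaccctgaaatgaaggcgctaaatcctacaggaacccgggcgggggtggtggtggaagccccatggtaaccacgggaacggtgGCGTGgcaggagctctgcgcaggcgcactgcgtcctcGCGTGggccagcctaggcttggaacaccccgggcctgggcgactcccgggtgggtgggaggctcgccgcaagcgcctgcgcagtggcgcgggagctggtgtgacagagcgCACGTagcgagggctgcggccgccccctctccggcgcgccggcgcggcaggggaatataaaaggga
P4ha2, chr11:54100674-54100973, plus strand: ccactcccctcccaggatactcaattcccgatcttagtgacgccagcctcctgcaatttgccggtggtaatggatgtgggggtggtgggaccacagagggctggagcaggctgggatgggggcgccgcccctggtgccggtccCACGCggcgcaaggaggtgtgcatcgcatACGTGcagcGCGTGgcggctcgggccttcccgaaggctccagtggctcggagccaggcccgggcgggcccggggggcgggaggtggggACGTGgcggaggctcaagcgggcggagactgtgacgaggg
Plod3, chr5:136986769-136987068, plus strand: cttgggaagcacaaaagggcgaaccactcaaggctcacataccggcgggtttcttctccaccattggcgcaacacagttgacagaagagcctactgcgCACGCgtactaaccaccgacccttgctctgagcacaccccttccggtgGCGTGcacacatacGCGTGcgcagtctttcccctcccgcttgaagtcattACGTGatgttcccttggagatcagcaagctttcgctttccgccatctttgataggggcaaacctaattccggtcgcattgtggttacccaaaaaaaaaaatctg
There were 3 matches in the window of P4ha1, 4 in that of P4ha2, 4 in that of Plod3, 2 in that of Plod1 and 1 in that of Loxl4. Of all 32851 promoter windows of the same length, 43.8% held at least 1 such match on either strand, 19.6% ACGTG and 32.4% GCGTG. The share of windows with more than 1 match was not counted. The palindrome CACGTG, which contains ACGTG, occurred in none of these 5 windows. The windows of P4ha1 and P4ha2 were 70.3% G and C and that of Loxl4 75.0%, against 64.3% for Plod1, 53.3% for Plod3 and a median of 52.7% over all windows. A match is a run of letters and not a measured binding site.

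Ranked by measured difference, the enzymes ran Lox, Loxl1, Loxl3, P4ha1, Loxl4, Plod1, Plod3, P4ha2 and Plod2. The intervals of the first 4 did not overlap those of their neighbours, and from Loxl4 downwards each interval overlapped the next. For the lysyl oxidases and P4ha1, and nearly so for Plod1 and P4ha2, this order rests on signals under background, so it does not rank their folds. Within an array, the log2 ratio of 2 isoforms shows whether they changed unequally, although not which was more abundant, since probe sets differ in brightness. This could be read for Plod2 and Plod3, which were above background on all 6 arrays. Plod3 was only just so on MEF-labelled replicates 1 (6.56, level 6.53) and 3 (6.69, level 6.58). The log2 ratio of Plod2 to Plod3 was lower on the keratinocyte-labelled arrays, with a shift of -0.66 (SD 0.18 there and 0.04 on the others, n = 3). The ratio of Plod1 to Plod2 had a shift of 0.82 (SD 0.24 and 0.06) and that of Plod1 to Plod3 of 0.16 (SD 0.11 and 0.02), with Plod1 above background on only 1 of the 3 MEF-labelled arrays. No ratio is given for the lysyl oxidases or the α subunits, because their MEF-labelled signals lay at or under background.

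From each family among the 9 enzymes, that with the largest difference was taken. Its nearest genes in pattern were those with the smallest root mean square difference over the 6 arrays after each gene was centred on its mean. For Lox they were Postn (0.37 on the log2 scale), Fstl1 (0.65) and Bgn (0.66), for Plod1 they were Chsy1 (0.05), Foxd1 (0.06) and Ccn2 (0.06), and for P4ha1 they were Cacna1c (0.09), Arhgap31 (0.10) and Fzd7 (0.11). Since the arrays form 2 clusters, this measure ranks genes mostly by the size of their difference between the groups.

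Of 11 measured genes of the hypoxia response, 5 were higher on the keratinocyte-labelled arrays, 2 were higher on the MEF-labelled ones and 4 did not pass, against 32.9% and 41.7% of all genes in these directions. With each array centred on its median, 7 and 2 of them were called, and over all genes 3801 and 3733. The median difference was 0.23. Bnip3, which promotes removal of mitochondria, had the largest difference, 3.40 (at least 3.42-fold, adjusted p = 2.41e-08), and its other probe set gave 2.80. The peptide hormone gene Adm (at least 2.45-fold), the growth factor gene Vegfa (2.59-fold) and Hif1a itself (1.64-fold) were higher on the same arrays. Egln3, a prolyl hydroxylase that acts on hypoxia-inducible factors and is itself induced by them, went the other way, with 5.76, 5.62 and 5.76 on the keratinocyte-labelled arrays against 7.43, 7.49 and 7.53 (3.42-fold, adjusted p = 4.69e-07). Pdk1, a kinase that restrains pyruvate oxidation, was 1.37-fold higher on the MEF-labelled arrays as well (adjusted p = 0.00888). The glucose transporter gene Slc2a1 (9.35 ± 0.10 and 9.57 ± 0.08, SD, n = 3, adjusted p = 0.0619) and the glycolytic gene Pgk1 (10.28 ± 0.13 and 10.12 ± 0.03, adjusted p = 0.150) did not pass, and 2 probe sets of Pgk1 hold identical values.

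The genes that fold and process procollagen were described by their counts in a list of 28, of which 23 were measured. Of these, 20 were higher on the keratinocyte-labelled arrays, 2 were higher on the MEF-labelled ones and 1, Tll1, did not pass (7.17 ± 0.11 and 7.16 ± 0.09, SD, n = 3, adjusted p = 0.926). Of all genes, 32.9% and 41.7% were called in these directions. P4ha3, Creb3l1 and Adamts14 met the floor only through the keratinocyte-labelled arrays, which favoured their direction. The median difference was 1.41. The largest were those of Pcolce, an enhancer of procollagen C-proteinase (6.79, at least 23.4-fold), Creb3l1, a transcription factor of collagen genes (6.49, at least 7.28-fold), P4ha3, a further α subunit of prolyl 4-hydroxylase (5.58, at least 2.33-fold), and Fkbp14, a chaperone of procollagen (3.52, at least 2.06-fold). P4ha3 was not above background on the MEF-labelled arrays (2.01, 1.66 and 2.41) and stood at 7.56, 7.58 and 7.67 on the others.

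P4hb, which encodes the β subunit that every α subunit needs and which also serves as protein disulfide isomerase, differed far less than its partners. It stood at 10.98, 11.07 and 11.09 on the keratinocyte-labelled arrays and at 10.50, 10.45 and 10.43 on the MEF-labelled ones, 1.50-fold higher on the former (adjusted p = 3.15e-04). Genes of the prolyl 3-hydroxylase family, whose enzymes modify a few prolines, did not all go the same way. P3h1, which acts on type I collagen in a complex with the products of Crtap and Ppib, was at least 3.73-fold higher on the keratinocyte-labelled arrays, and its partners were 2.98-fold and 1.79-fold higher. P3h3 and P3h4, whose products form a complex with that of Plod1, were higher there by at least 3.11-fold and by 1.70-fold. P3h2, which acts on basement membrane collagen, went the other way, with 5.44, 5.15 and 5.25 on the keratinocyte-labelled arrays against 8.37, 8.38 and 8.41, at least 6.43-fold higher on the MEF-labelled ones (adjusted p = 3.68e-08). The second gene against the direction of the list was Pcolce2, a relative of Pcolce, with 5.19, 5.30 and 5.98 against 7.71, 7.71 and 7.83 (4.78-fold higher on the MEF-labelled arrays, adjusted p = 1.28e-05). It was above background on 1 keratinocyte-labelled array. The collagen chaperone gene Serpinh1 was 4.95-fold higher on the keratinocyte-labelled arrays, and the transport genes Sec23a and Sec24d, which form the coat of vesicles large enough for procollagen, were 4.06-fold and 3.73-fold higher.

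**Figure D3:**
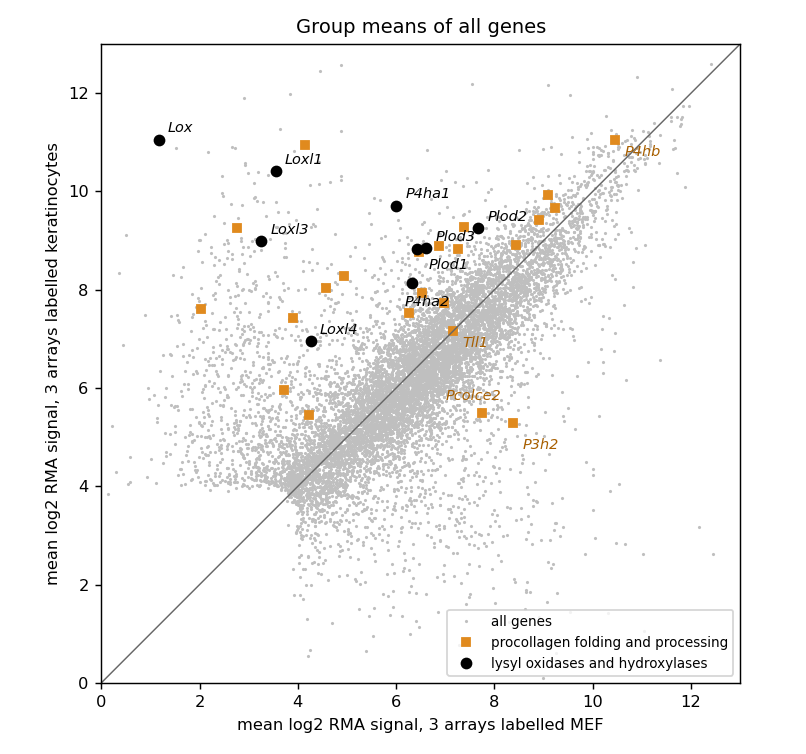
Mean log2 RMA signal on the 3 keratinocyte-labelled arrays (vertical axis) against that on the 3 labelled MEFs (horizontal axis) for all 10261 genes (grey), the 9 enzymes (black) and 23 genes of procollagen folding and processing (orange), with the line of equal signal. All 9 enzymes lie above the line, P3h2 and Pcolce2 lie below it, and the empty corner at low signals on both axes is the floor of the deposited table.

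Genes that supply cofactors or assist cross-linking were measured for 8 of 12 listed. Of these, 6 were higher on the keratinocyte-labelled arrays and 2 on the MEF-labelled ones, against 32.9% and 41.7% of all genes. Postn and Fmod met the floor only through the keratinocyte-labelled arrays, which favoured their direction. The median difference of the 8 genes was 2.18. The partners of lysyl oxidase in the matrix had the largest differences: Postn, whose product promotes activation of Lox (9.35, at least 22.5-fold), Fmod, a small proteoglycan that binds collagen (5.59, at least 4.01-fold), Fbln5, which joins elastin to Loxl1 (5.36, at least 14.5-fold), and Fn1, which encodes fibronectin (3.07, 8.41-fold). The copper pump gene Atp7a, whose product loads secreted copper enzymes, stood at 7.34, 6.82 and 6.93 against 5.65, 5.74 and 5.87 (at least 1.56-fold higher on the keratinocyte-labelled arrays, adjusted p = 7.41e-05). The 2 genes that went the other way supply cofactors inside the cell. Slc23a2, which encodes a transporter of ascorbate, stood at 6.88, 6.57 and 6.60 against 7.93, 7.99 and 8.10, 2.50-fold higher on the MEF-labelled arrays (adjusted p = 1.22e-05). Atox1, which encodes the chaperone that hands copper to Atp7a, was 1.90-fold higher there, with 7.32, 7.41 and 7.67 against 8.54, 8.23 and 8.42 (adjusted p = 2.19e-04).

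Of the 12 substrate genes, all measured, 10 were higher on the keratinocyte-labelled arrays and 2 on the MEF-labelled ones. Over all genes, 32.9% and 41.7% were called in these directions. Col5a2 and Col11a1 met the floor only through the keratinocyte-labelled arrays, and Col17a1 only through the MEF-labelled ones. This favoured their directions. The median difference of the 12 genes was 5.24. The largest differences in the direction of the enzymes were those of the fibrillar collagen genes Col1a2 (7.99, at least 66.8-fold), Col1a1 (7.71, at least 73.2-fold) and Col5a2 (7.39, at least 16.0-fold), and elastin (Eln) was at least 13.4-fold higher. The basement membrane genes Col4a1 and Col4a2 differed by less, 2.29-fold and 1.61-fold, and were above background on all 6 arrays. The 2 genes that were higher on the MEF-labelled arrays encode the collagens that fix keratinocytes to the basement membrane. Col7a1, of the anchoring fibrils, stood at 7.61, 7.58 and 7.71 there against 6.27, 6.37 and 6.27 (2.51-fold, adjusted p = 2.59e-06), and Col17a1, of the hemidesmosome, stood at 10.35, 10.31 and 10.41 against 3.61, 3.99 and 4.10 (at least 25.3-fold, adjusted p = 3.79e-09).

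**Figure D4:**
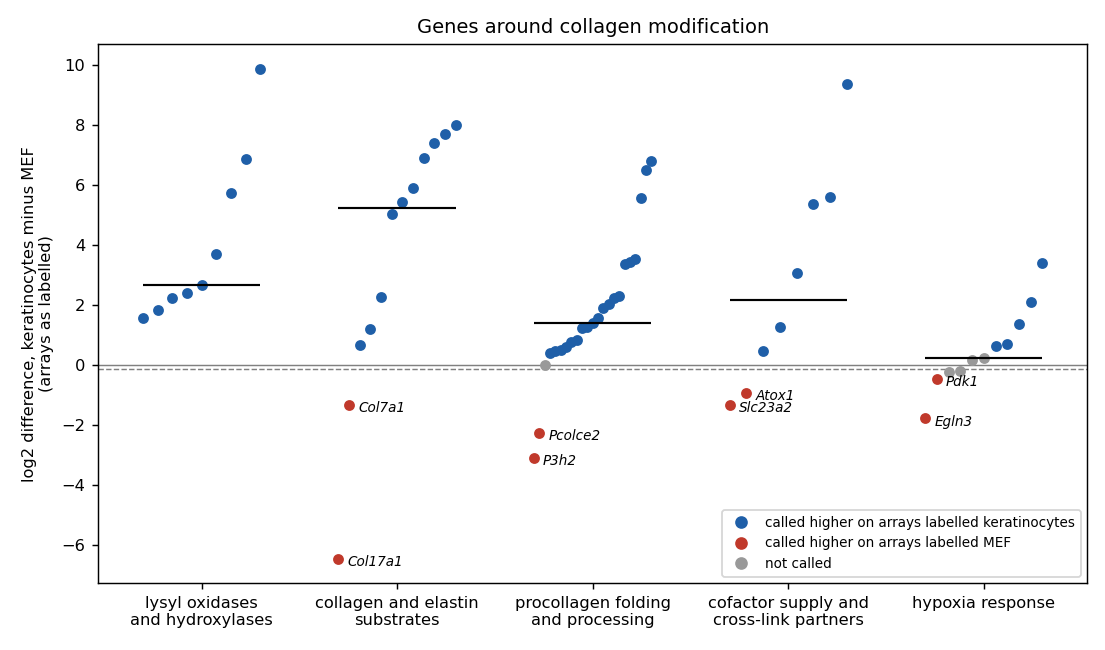
Log2 difference, keratinocyte-labelled minus MEF-labelled arrays (vertical axis), of the 9 enzymes and of 4 related gene lists, with each point a gene, coloured by its call in limma, and black lines for list medians (2.68, 5.24, 1.41, 2.18 and 0.23 from left to right). The dashed line is the median of all genes (-0.12), and named are the genes called higher on the MEF-labelled arrays.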

How the data were processed

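Total RNA was hybridised to Affymetrix MoGene-1_0-st arrays, and the authors deposited log2 values, which per the methods are RMA signals made with oligo (version 1.46.0 in the submitters' processing notes). That the table is this RMA output was inferred from its range. RMA compresses dim signals and evens out totals between arrays. The deposited table holds only probe sets with a log2 signal of at least 4 on at least 2 arrays, a property found in the values, and how it arose is not stated in the sources.

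Gene names came from the platform annotation: 11288 of 15648 had 1 gene symbol, 645 had several and were not named, and 3715 were not listed. Symbols were updated for 11274 through a RefSeq gene table of GRCm38.p6. Each gene took the values of its brightest probe set (10261 genes). Groups came from the sample titles. Groups were compared in limma 3.58.1 (lmFit, then eBayes; R 4.3.3), with no block, on all 11288 probe sets with Benjamini-Hochberg adjustment, and the fit was tested on simulated data. Figures used matplotlib 3.10.9 in Python 3.11.15. The members and the gene lists were chosen with earlier results of these data known. Named were all members, Cdh1, Vim, the marker genes of other cell types that had a single measured member, up to 4 genes with the largest differences in each list, every gene that passed against most of its list, and the nearest patterns. Further genes of the complexes (P4hb, Crtap, Ppib, P3h1, P3h3, P3h4, Serpinh1, Sec23a, Sec24d, Atp7a, Eln, Col4a1, Col4a2, Slc2a1 and Pgk1) were named after their values were seen. So were the markers Itgb4, Col3a1, Des, Myh11, Acan, Comp and Sox9. The lists were described by counts and medians, with no test of a list. The alternatives tried were quantile normalization, median centring, a fit with a replicate block, fits without each array, filters on dim probe sets, other variance models, array weights, the methods' t-test, all probe sets, a minimum difference, averaging the probe sets of a gene, and other background levels. The number of arrays limits the precision.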

Additional observations from a re-analysis of the deposited data

How the results depend on the processing

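The 9 enzymes kept their direction and their call in 153 of 153 cases (17 alternatives each). All alternatives reuse the same arrays, and the minimum difference only filters the calls of the reported fit, so this count is not independent support. For Lox, Loxl1 and Loxl3 the floor favoured the direction in each case. Differences lay between 9.59 and 10.15 for Lox, 6.69 and 7.09 for Loxl1, 5.55 and 5.90 for Loxl3, and 2.48 and 2.81 for Loxl4. They lay between 2.36 and 2.50 for Plod1, 1.51 and 1.68 for Plod2, and 2.19 and 2.34 for Plod3. For the α subunits they lay between 3.66 and 3.80 for P4ha1, and 1.69 and 1.92 for P4ha2. The highest adjusted p over these alternatives was 0.00115, for P4ha2. With the replicate number as a block 9 enzymes were called higher on the keratinocyte-labelled arrays, and the block changed no other call of the enzymes. The numbers did not pair the arrays: deviations of same-numbered arrays from their group means correlated at -0.231, -0.209 and -0.032 over probe sets. With a minimum log2 difference of 1, the calls higher on the keratinocyte-labelled arrays fell from 20 to 14 procollagen genes, from 6 to 5 cofactor and cross-link genes, from 10 to 9 substrate genes, from 5 to 3 hypoxia genes and over all genes from 3371 to 1442. Those higher on the MEF-labelled arrays fell from 2 to 1 for the cofactor and for the hypoxia genes and from 4278 to 1476 over all genes. Under the alternatives without that minimum, 5 to 7 hypoxia genes were called higher on the keratinocyte-labelled arrays and 2 to 3 on the MEF-labelled ones. The number of enzymes not above background on the MEF-labelled arrays was 5, and became 8 with the maximum and 3 with the median of the olfactory receptors as the level: with the maximum only Plod2 exceeded it, so which families are above background depends on the level. Signal over background thus limits the folds of the lysyl oxidases and P4ha1.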

Other observations

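Collagen hydroxylases belong to a larger family of dioxygenases that need iron and 2-oxoglutarate. A list of 26 other members of that family, among them the demethylases of histones and nucleic acids and the hydroxylases of hypoxia-inducible factors, was drawn up after the values of the collagen enzymes were seen. Of the 22 that were measured, 9 were higher on the keratinocyte-labelled arrays, 6 were higher on the MEF-labelled ones and 7 did not pass (32.9% and 41.7% of all genes were called in these directions). The median difference was 0.18, against -0.12 for all genes. The lysyl hydroxylases, P4ha1 and P4ha2 had differences from 1.58 to 3.71, with P4ha1 under background on the MEF-labelled arrays. The lysyl oxidases, which are copper enzymes, are left out of this comparison. The histone demethylase genes Kdm4a (8.55 ± 0.02 against 7.09 ± 0.07, SD, n = 3) and Kdm5b (9.07 ± 0.13 against 7.79 ± 0.08) were 2.74-fold and 2.42-fold higher on the keratinocyte-labelled arrays. Asph, which encodes a hydroxylase of the endoplasmic reticulum that acts on aspartate, was 1.77-fold higher there. Hif1an, which encodes an asparagine hydroxylase of hypoxia-inducible factors, was 1.72-fold higher on the MEF-labelled arrays (6.84 ± 0.02 against 6.06 ± 0.05), as was Egln3. The largest difference among the 22 in the direction of the collagen enzymes, 1.62, was that of the DNA demethylase gene Tet1, beside 1.58 for Plod2. Tet1 was above background on no array. It met the floor only through the keratinocyte-labelled arrays, which favoured its direction, so it is not ranked against Plod2.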
